A study of Mus musculus with 14 samples.

Results

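The translation initiation factors (eIF) and elongation factors (eEF) of mouse were taken by name, as the rows of the deposited expression table whose symbol starts with Eif or Eef followed by a digit. There were 68 such genes among 35735 rows, 54 named Eif and 14 named Eef. Another 13 rows of pseudogenes and the 3 genes Eif2s3y, Eif2s3x and Eif2ak2 carry such a name and were left out. Enzymes that modify the factors, such as the kinase Eef2k and the methyltransferases Eef2kmt and Eef1akmt1, are members by the same naming.

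RNA was sequenced from microglia, the resident macrophages of neural tissue, sorted from retinas of mice 12 weeks old that were APOE E4/E4 or APOE E3/E3. Eyes were injected with microbeads, which block the drainage of fluid and serve as a model of glaucoma, or sham-injected. Of APOE E4/E4 mice there were 3 libraries after microbeads (APOE4 microbead) and 4 after sham injection (APOE4 sham), and of APOE E3/E3 mice again 3 (APOE3 microbead) and 4 (APOE3 sham). Every library is a sort of CD11b+, Ly6c- and Fcrls+ cells from 1 retina, every animal carried 1 of these APOE genotypes, and no uninjected eye was analysed here. The labels give no promoter for the APOE allele, no sex and no statement that retinas came from separate animals, so p-values measure the spread between these samples, which may be technical.

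In initiation, eIF4F binds the mRNA cap and unwinds the leader, eIF3 and eIF2 bring the initiator tRNA on the small ribosomal subunit, and eIF1 and eIF5 help to select the start codon. In elongation, eEF1A delivers each aminoacyl-tRNA to the ribosome, the eEF1B subunits recharge eEF1A with GTP, and eEF2 moves the ribosome along by a codon. The mRNAs of most elongation factors and of some initiation factors start with a terminal oligopyrimidine tract (5′ TOP), through which mTORC1, a growth-sensing kinase complex, sets how much of them is translated.

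Libraries held 453429 to 730134 estimated reads, of which 9 genes, Cst3 and 8 predicted genes, took 37.8% to 63.4%. The microglial markers (9 genes, P2ry12 and Tmem119 among them) summed to 8093 to 9871 CPM in APOE4 microbead, 8531 to 9982 CPM in APOE4 sham, 3830 to 6529 CPM in APOE3 microbead and 7781 to 11170 CPM in APOE3 sham libraries (CPM, TMM-normalised counts scaled to a common library size). The monocyte list of 10 genes summed to 1638, 735 and 352 CPM in APOE3 microbead libraries 1, 2 and 3, against 67.7 to 102 CPM in APOE3 sham libraries. It summed to 65.9 to 240 CPM in APOE4 microbead libraries, against 54.7 to 81.3 CPM in APOE4 sham libraries. Most reads of that list in APOE3 microbead libraries were of Fn1, with 1017 of them, while Ly6c2, the marker the sort selected against, had 4 reads there. Most reads of the B cell list of 5 genes were of Ighm. This list summed to 156 to 238 CPM in APOE4 microbead and 237 to 323 CPM in APOE4 sham libraries. In APOE3 it summed to 102 to 138 CPM in microbead and 275 to 303 CPM in sham libraries. The rod photoreceptor list of 10 genes varied widely within groups, and microbead and sham libraries overlapped in both genotypes. It summed to 220 to 625 CPM in APOE4 microbead and 352 to 1504 CPM in APOE4 sham libraries. In APOE3 the rod list summed to 137 to 668 CPM in microbead and 235 to 1857 CPM in sham libraries. On the first principal component of all genes tested, APOE3 microbead libraries 1, 2 and 3 lay at 57.6, 35.4 and 20.7, apart from the other 11 libraries at -20.3 to 8.46. The part of these differences in the results below was not tested.

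**Figure D1:**
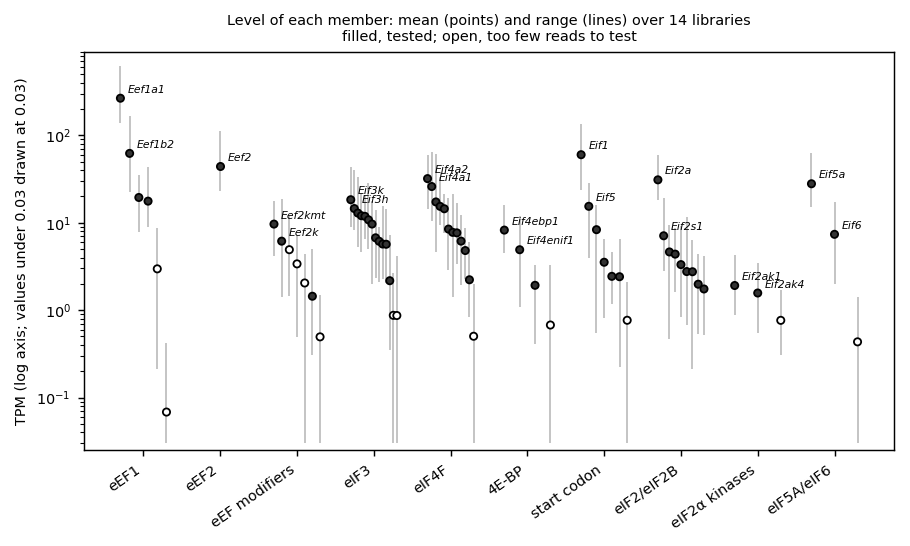
Level of each member by role group, as TPM on a log axis, with the mean over 14 libraries as a point and the lowest to highest library as a line (filled, enough reads to test; open, too few). Eef1a1 lies above every other member, at a mean of 265.8 TPM.

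Levels of the members spanned several orders of magnitude. On the TPM scale, which corrects for gene length, 20 members averaged over 10 TPM across the 14 libraries and 11 averaged under 1 TPM. Eef1a1, the general form of eEF1A, was the highest at 265.8 TPM. Next came Eef1b2, the nucleotide exchange subunit of eEF1B, at 62.1 TPM, Eif1, which guards start codon choice, at 60.0 TPM, and Eef2, the translocase, at 44.4 TPM. The ranges of these 3 over libraries overlapped, from 22.5 to 166 TPM for Eef1b2, 23.5 to 134 TPM for Eif1 and 23.0 to 111 TPM for Eef2, so their order is within the spread.

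Many factors exist as paralog pairs, and in the retinal microglia the mRNA levels of some of these were unequal. Eef1a2, the eEF1A of muscle and mature neurons, had 4 reads over all 14 libraries, while Eef1a1 had 12040. Eif5a, the form of eIF5A found in most tissues, averaged 27.9 TPM, while Eif5a2 averaged 0.434 TPM. The 2 cytoplasmic eIF4A helicases were close, with Eif4a2 at 32.0 TPM and Eif4a1 at 25.9 TPM. Among genes for cap-binding proteins, Eif4e averaged 7.76 TPM, Eif4e2 7.66 TPM, Eif4e3 2.23 TPM and Eif4e1b, an oocyte form, 0.502 TPM. Among inhibitors of eIF4E, Eif4ebp1 averaged 8.23 TPM, Eif4ebp2 1.92 TPM and Eif4ebp3 0.676 TPM. The scaffolds Eif4g2, Eif4g1 and Eif4g3 averaged 17.3, 8.46 and 4.81 TPM, where Eif4g2 encodes a form that lacks the eIF4E binding site. Their ranges over libraries overlapped, at 4.67 to 61.0, 2.9 to 19.0 and 2.26 to 8.69 TPM. Eif4g2 averaged 28.3 ± 26.1 TPM in APOE3 sham and 21.8 ± 12.6 TPM in APOE4 sham libraries (SD, n = 4 each). In microbead libraries it averaged 7.02 ± 3.25 TPM in APOE3 and 6.88 ± 3.25 TPM in APOE4 (SD, n = 3 each). On the CPM scale the difference was smaller. There it averaged 113 CPM in APOE3 sham and 79.5 CPM in APOE3 microbead libraries. In APOE4 it averaged 100 CPM in sham and 83.8 CPM in microbead libraries. Of the eIF2 alpha kinases, which shut down initiation in stress, Eif2ak1 averaged 1.91 TPM and Eif2ak4 1.57 TPM. Eif2ak3, the kinase of the unfolded protein response, averaged 0.764 TPM. The ranges of these kinases over libraries overlapped, at 0.886 to 4.23, 0.555 to 3.47 and 0.303 to 1.70 TPM.

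Reads sufficed to test 53 of the 68 members. The other 15 had 1 to 79 reads each over all libraries: Eef1a2, Eef1e1, Eef1akmt1, Eef1akmt2, Eef1akmt3, Eef1akmt4, Eif1ax, Eif2ak3, Eif3j1, Eif3j2, Eif4e1b, Eif4ebp3, Eif5a2, Eif4a3l1 and Eif4a3l2. These were left out of the test.

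The first comparison asks how APOE3 microglia differed between the glaucoma model and sham injection. In APOE3 microbead libraries 4 of the 53 members tested rose and 0 fell (edgeR quasi-likelihood test, Benjamini-Hochberg adjusted p under 0.05, here termed called). Of all 7609 genes tested 5.19% were called, 3.52% higher and 1.67% lower. The count of 4 in 53 is near that share and is not read as a result about the members as a set. The members that rose were Eef1a1, Eef1b2, Eef2 and Eif3f, that is 2 of the 4 eEF1 subunits tested, eEF2, and 1 of 12 eIF3 subunits. The median log2 fold change was 0.15 over the 53 members and -0.02 over all genes tested, with 34 members above 0. That member median was 0.04 to 0.20 with single libraries left out, lowest without APOE3 microbead 2, and 0.01 without both APOE3 microbead libraries 1 and 2. An unadjusted p under 0.05 was reached by 10 members, and DESeq2 called the same 4. In bulk samples fewer cells of a type and less RNA per cell cannot be told apart.

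Annotated gene starts are shown for Eef2 and Eif3f, members of the 5′ TOP class that rose, where RefSeq and the GENCODE transcript with most reads start within 2 bases of each other. Each line gives 30 bases before and 30 from the RefSeq start (GRCm38.p6, strand of the gene), which need not be where the mRNA of these cells starts. Capitals mark runs of at least 6 pyrimidines (C or T). Eef2 lies at chr10:81176601-81176660 (plus) and Eif3f at chr7:108934385-108934444 (plus).
Eef2: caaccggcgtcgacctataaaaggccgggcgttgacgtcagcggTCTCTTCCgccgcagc
Eif3f: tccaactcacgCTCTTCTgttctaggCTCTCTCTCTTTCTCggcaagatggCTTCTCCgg
Eef1b2 is not shown, because its transcript with most reads starts 299 bases past its RefSeq start. Eef1a1 is not shown, because the letters TATATAA, those of a TATA box, begin at base 24 counted from its RefSeq start. The line of Eef2 holds the similar letters TATAAAA shortly before its RefSeq start, so that start is uncertain too. On the strand of the gene, a run was present in the 60 bases of 3 of the 4 genes that rose, of 27 of 66 promoters of members (40.9%, from 51 members with an entry) and of 49.6% of 32851 promoters of all genes. In the 30 bases from the start alone, it was present in 2 of the 4, in 27.3% of the 66 and in 26.5% of all. The windows thus do not set members apart from other genes. A match in letters is a description and not a site of control.

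Eef1a1 had 1931, 2163 and 1607 CPM in APOE3 microbead libraries, against 1193, 895, 1087 and 1230 CPM in APOE3 sham libraries. It had 1746, 1362 and 1378 CPM in APOE4 microbead libraries, against 1146, 1145, 1196 and 1177 CPM in APOE4 sham libraries. In both genotypes every microbead library lay above every sham library. The log2 fold change was 0.79 ± 0.17 in APOE3 (SE, adjusted p = 0.00433), and in APOE4 it was 0.36 ± 0.17, which was not called (adjusted p = 0.759). A single transcript, Eef1a1-201, held 97.4% of the reads of the gene, and processed pseudogenes of Eef1a1 share sequence with it, so that some reads may belong to copies.

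Eef1b2 had 204.5, 211 and 150.3 CPM in APOE3 microbead libraries, against 111, 70.9, 86.0 and 92.2 CPM in APOE3 sham libraries. In APOE4 microbead libraries it had 157, 131 and 129.6 CPM, against 107, 86.0, 95.7 and 83.4 CPM in APOE4 sham libraries. Again no microbead library overlapped the sham libraries of its genotype. The log2 fold change was 1.07 ± 0.21 in APOE3 (adjusted p = 0.00167), the smallest adjusted p among the members. In APOE4 it was 0.58 ± 0.21 (unadjusted p = 0.0112 and adjusted p = 0.473 in edgeR). Its reads were spread over several transcripts, with 37.9% on the coding Eef1b2-209 and 25.1% on Eef1b2-205, annotated as a target of nonsense-mediated decay.

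Eef2 had 546, 724 and 512 CPM in APOE3 microbead libraries, against 398, 324, 344 and 454 CPM in APOE3 sham libraries. In APOE4 microbead libraries it had 589, 393 and 412 CPM, against 382, 365, 361 and 412 CPM in APOE4 sham libraries. The APOE3 groups did not overlap, and the APOE4 groups did. The log2 fold change was 0.64 ± 0.19 in APOE3 (adjusted p = 0.0451) and 0.29 ± 0.19 in APOE4 (adjusted p = 0.898).

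Of the other eEF1B subunits, Eef1g, the structural gamma subunit, had 111, 151 and 106 CPM in APOE3 microbead libraries, against 82.6, 67.5, 64.5 and 77.2 CPM in APOE3 sham libraries. These groups did not overlap either, but its log2 fold change of 0.75 ± 0.24 missed the threshold (adjusted p = 0.0622). Eef1d, the delta subunit with an exchange domain, had 45.7, 52.4 and 52.9 CPM in APOE3 microbead libraries and 49.6, 47.3, 58.7 and 50.7 CPM in APOE3 sham libraries, which overlapped (log2 fold change -0.02 ± 0.27).

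**Figure D2:**
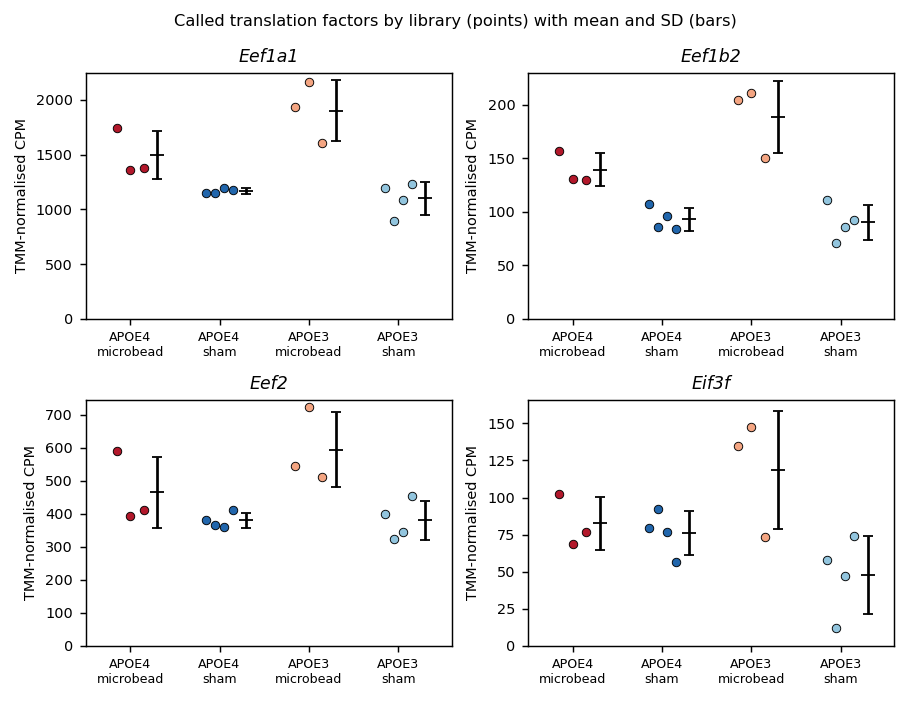
TMM-normalised CPM of Eef1a1, Eef1b2, Eef2 and Eif3f in each library (points), with the mean and SD of each group (bars; n = 3 microbead, n = 4 sham). APOE3 microbead libraries lie above all APOE3 sham libraries for Eef1a1, Eef1b2 and Eef2, while for Eif3f the lowest of them, at 73.4 CPM, lies just under the highest sham library, at 73.8 CPM.

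Eif3f, a subunit of the eIF3 scaffold, had 135, 148 and 73.4 CPM in APOE3 microbead libraries, against 57.8, 11.8, 46.9 and 73.8 CPM in APOE3 sham libraries. In APOE4 microbead libraries it had 103, 68.7 and 76.5 CPM, against 79.5, 92.3, 76.9 and 56.2 CPM in APOE4 sham libraries. The APOE3 groups met at their edges, and the APOE4 groups overlapped. The log2 fold change was 1.29 ± 0.37 in APOE3 (adjusted p = 0.0463) and 0.11 ± 0.37 in APOE4 (adjusted p = 0.995). The lowest sham library, APOE3 sham 2, held 7 reads of Eif3f, and without it the log2 fold change was 0.98 ± 0.28 (adjusted p = 0.0464).

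These calls depended on the libraries and on the scaling. Without both APOE3 microbead libraries 1 and 2, which had the highest monocyte sums, 0 members were called, with log2 fold changes of 0.75 ± 0.29 for Eef1b2 (adjusted p = 0.387), 0.56 ± 0.21 for Eef1a1 (adjusted p = 0.381), 0.44 ± 0.25 for Eef2 (adjusted p = 0.693) and 0.60 ± 0.52 for Eif3f (adjusted p = 0.855). That fit assumes that the lone library left varies like the other groups. Scaling by library totals also left 0 called, at adjusted p = 0.0624 for Eef1b2 and 0.199 for Eef1a1. For Eef1b2 the log2 fold change was then 1.06 ± 0.31, against 1.07 ± 0.21 with TMM, so mainly the SE differed. The edgeR fit with DESeq2 size factors called the same 4 members, as did TMM without the genes over 1% of reads. By limma on log2(TPM + 1) 0 were called. With single libraries left out in turn, Eef1b2 and Eef1a1 were called in all 14 fits, while the adjusted p of Eef2 reached 0.294 and that of Eif3f 0.217, both without APOE3 microbead 2. Only 2 members were called without APOE3 sham 1 or 3, APOE3 microbead 2, any 1 of the 4 APOE4 sham libraries, or APOE4 microbead 2 or 3. APOE3 microbead 3 had 1607 CPM of Eef1a1, 150.3 CPM of Eef1b2 and 512 CPM of Eef2, above all 4 APOE3 sham libraries. Its Eif3f, at 73.4 CPM, lay under the highest APOE3 sham library, at 73.8 CPM. Its monocyte sum of 352 CPM was the lowest of its group, yet above the 67.7 to 102 CPM of APOE3 sham libraries. The part of the monocyte signal in these values was not tested.

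Fold changes of the eIF3 subunits in APOE3 were mostly above 0, with Eif3f as the 1 call. Of the 12 tested 10 were above 0, with a median log2 fold change of 0.42 and a range from -0.54 to 1.29. The summed level of the eIF3 subunits was 642 ± 131 CPM in APOE3 microbead libraries (SD, n = 3) and 456 ± 41.9 CPM in APOE3 sham libraries (SD, n = 4), and these overlapped, since APOE3 microbead 3 held 499 CPM and APOE3 sham 4 held 512 CPM. Eif3k, the subunit highest in TPM, had 56.5, 62.1 and 44.4 CPM in APOE3 microbead libraries, against 38.0, 30.4, 41.0 and 47.3 CPM in APOE3 sham libraries. It had 38.8, 33.5 and 24.9 CPM in APOE4 microbead libraries.

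For the cap-binding and scanning machinery no member was called in APOE3. The role group of eIF4F (cap binding, helicase and scaffold) also holds the related genes Eif4b, Eif4h, Eif4a3 and Eif4g2. The 11 genes tested in it had log2 fold changes from -0.51 to 0.26, with a median of 0.14. Eif4g2 was at the low end, with 87.0, 95.2 and 56.4 CPM in APOE3 microbead libraries, against 104, 106, 107.5 and 135 CPM in APOE3 sham libraries. Its groups did not overlap, and the log2 fold change of -0.51 ± 0.23 was not called (adjusted p = 0.295). Eif4a2, one of the helicases, had 112 ± 12.6 CPM in APOE3 microbead libraries (SD, n = 3) and 99.1 ± 9.19 CPM in APOE3 sham libraries (SD, n = 4). Eif4ebp1, which sequesters eIF4E until mTORC1 phosphorylates it, had 80.5, 47.1 and 35.9 CPM in APOE3 microbead libraries, against 46.3, 27.0, 39.1 and 26.5 CPM in APOE3 sham libraries. Those groups overlapped, with a log2 fold change of 0.63 ± 0.31 (adjusted p = 0.335).

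Start codon factors, eIF2 with its exchange factor eIF2B, and the eIF2 alpha kinases held no call in APOE3 either. The median log2 fold change was -0.10 over 6 start codon factors, 0.01 over 9 genes of eIF2, eIF2B and initiator tRNA delivery, and 0.14 over 2 kinases. Eif1 had 97.9, 141 and 109 CPM in APOE3 microbead libraries and 99.1, 89.5, 164 and 161 CPM in APOE3 sham libraries. Eif2a, an alternative carrier of the initiator tRNA, had 167.5, 68.5 and 135 CPM in APOE3 microbead libraries and 155, 120, 84.1 and 98.0 CPM in APOE3 sham libraries. Both genes overlapped between groups. Eif5a, which helps ribosomes through stalling sequences, had 148, 156 and 80.3 CPM in APOE3 microbead libraries and 102, 76.0, 111 and 119 CPM in APOE3 sham libraries, which overlapped too. The modifying enzymes stood at a median of -0.01 over 3 tested, with Eef2k, the kinase that inhibits eEF2, at 28.3, 49.2 and 71.7 CPM in APOE3 microbead libraries and 67.7, 50.6, 45.0 and 40.4 CPM in APOE3 sham libraries. Eef2kmt, a methyltransferase of eEF2, had 38.8 ± 10.9 CPM in APOE3 microbead libraries (SD, n = 3) and 38.2 ± 12.8 CPM in APOE3 sham libraries (SD, n = 4).

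All 4 called members belong to the 9 members listed as 5′ TOP mRNAs, so 4 of 9 were called there and 0 of the 44 other members tested, where 5.19% of all genes were called and 3.52% were called higher. The median log2 fold change in APOE3 was 0.72 over the 9, 0.10 over the 44 and -0.02 over all genes tested. The summed level of the 9 was 3134, 3687 and 2646 CPM in APOE3 microbead libraries, against 2035, 1521, 1836 and 2122 CPM in APOE3 sham libraries. It was 2898, 2199 and 2284 CPM in APOE4 microbead libraries, against 2002, 1957, 2005 and 1983 CPM in APOE4 sham libraries, so neither genotype showed overlap. The list was drawn up with earlier results of these data known, and Eef1a1 and Eef2 make up most of these sums.

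In APOE4 the same comparison called 0 of 53 members by the edgeR test, where 0.223% of all genes were called, and 0 by DESeq2 or limma. An unadjusted p under 0.05 was reached by 4 members, the median log2 fold change was -0.01 over the members and 0.00 over all genes tested, and 26 members lay above 0. The eEF1 genes had the highest median of any role group with more than 1 member tested, 0.33 over 4. The direction of single genes depended on the scale there: by limma on log2(TPM + 1), where the median of all genes was -0.32, the log2 difference was -0.0432 for Eef1a1, -0.16 for Eef2 and -0.23 for Eif3f. Eif1 had 71.7, 105 and 113 CPM in APOE4 microbead libraries and 128, 100.3, 133 and 120 CPM in APOE4 sham libraries, which overlapped. Eif2ak1, the heme-regulated kinase, had 29.1, 35.1 and 16.6 CPM in APOE4 microbead libraries and 36.3, 14.3, 15.4 and 12.7 CPM in APOE4 sham libraries, which overlapped as well.

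**Figure D3:**
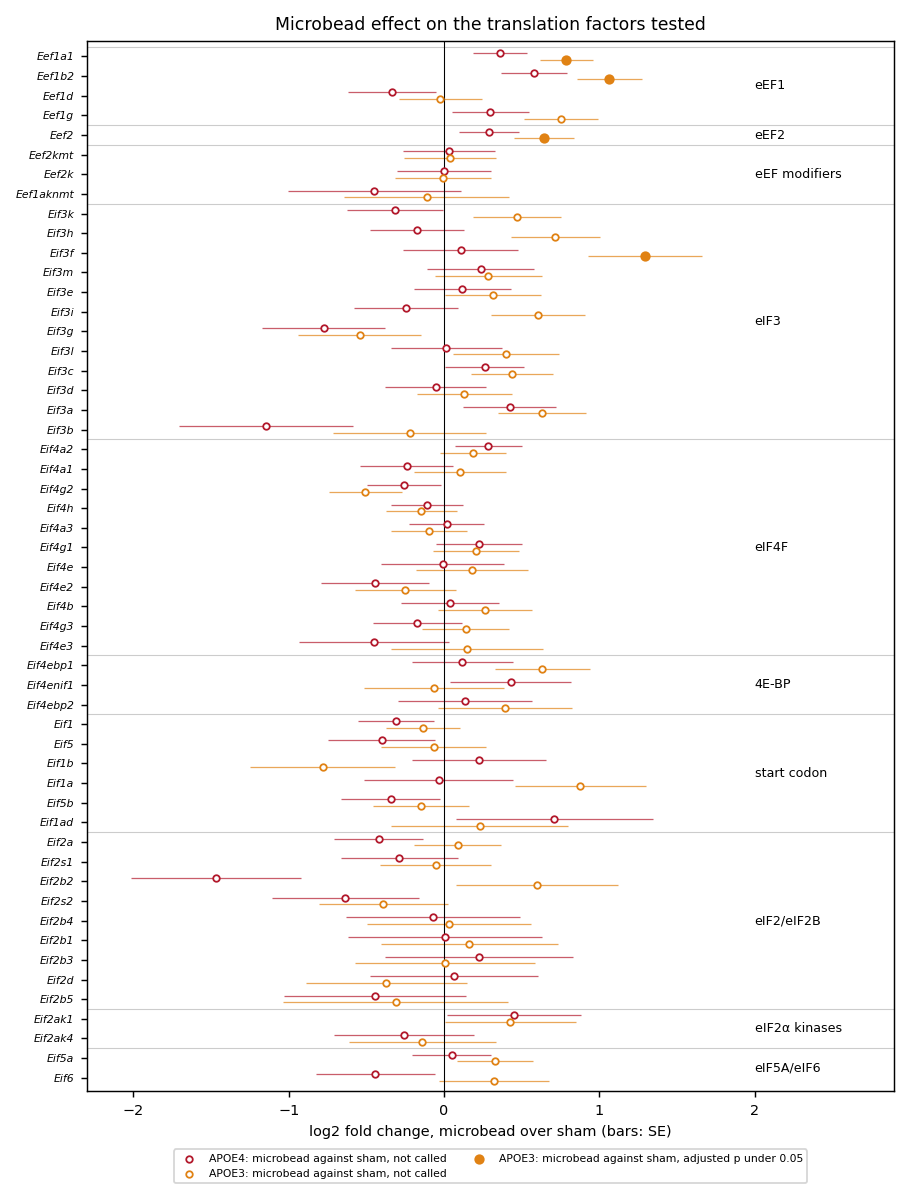
Log2 fold change of microbead over sham for each of the 53 members tested, in APOE4 (red) and APOE3 (orange), grouped by role and with SE as bars. Filled points, adjusted p under 0.05, are found in APOE3 at Eef1a1, Eef1b2, Eef2 and Eif3f, with log2 fold changes from 0.64 to 1.29.

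Whether the microbead effect differed between genotypes was tested by the interaction, the APOE4 effect minus the APOE3 effect. It called 0 of 53 members, where 0.092% of all genes were called, and 3 members had an unadjusted p under 0.05. DESeq2 and limma called 0 members as well. For the 4 genes that rose in APOE3 the difference was -0.43 ± 0.24 for Eef1a1 (adjusted p = 0.700 in edgeR), -0.49 ± 0.30 for Eef1b2 (adjusted p = 0.743), -0.35 ± 0.27 for Eef2 (adjusted p = 0.834) and -1.19 ± 0.52 for Eif3f (adjusted p = 0.554). A smaller rise in APOE4 was therefore not shown for any of them. The median difference was -0.23 over the 53 members and 0.01 over all genes tested, with 41 members below 0, among them the 12 eIF3 subunits tested. Members of a complex are measured in the same libraries, so these counts are a description.

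The smallest unadjusted p of the interaction among the members was at Eif2b2, a subunit of the eIF2B exchange factor. It had 9.69, 9.58 and 6.65 CPM in APOE4 microbead libraries, against 19.0, 27.1, 37.6 and 12.7 CPM in APOE4 sham libraries. It had 15.2, 23.5 and 10.2 CPM in APOE3 microbead libraries, against 13.2, 1.69, 13.7 and 14.99 CPM in APOE3 sham libraries. The APOE4 groups did not overlap and the APOE3 groups did, and the difference of -2.07 ± 0.76 was not called (adjusted p = 0.373). These values rest on 1 to 22 reads per library.

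Between genotypes after sham injection 0 of 53 members were called by the edgeR test, where 0.0131% of all genes were, and 0 by DESeq2 or limma. An unadjusted p under 0.05 was reached by 3 members, and the median log2 fold change was 0.03 over members and 0.00 over all genes tested. Eef1a1 averaged 1166 ± 25.2 CPM in APOE4 sham and 1101 ± 150.3 CPM in APOE3 sham libraries (SD, n = 4 each), a difference within the spread. Eef2k averaged 73.0 ± 6.90 CPM in APOE4 sham and 50.9 ± 12.0 CPM in APOE3 sham libraries (SD, n = 4 each), with a log2 fold change of 0.52 ± 0.28 that was not called (adjusted p = 0.962). Eif2ak4, the kinase that senses uncharged tRNA, had 22.5, 36.6, 10.3 and 29.0 CPM in APOE4 sham and 29.7, 21.9, 11.7 and 9.22 CPM in APOE3 sham libraries, which overlapped.

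Between genotypes in the glaucoma model the edgeR test also called 0 of 53 members, where 0.578% of all genes were called, with 6 members at an unadjusted p under 0.05 and 0 called by DESeq2 or limma. The median log2 fold change, APOE4 over APOE3, was -0.27 over members and 0.00 over all genes tested, with 36 members below 0. That member median was -0.34 to -0.16 with single libraries left out, nearest 0 without APOE3 microbead 2, and -0.04 without both APOE3 microbead libraries 1 and 2. The 9 members of the 5′ TOP list were all below 0, at a median of -0.39.

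Among single members in that comparison, Eif4enif1, which carries eIF4E into the nucleus, had its highest values in APOE4 libraries. It had 36.8, 22.4 and 41.6 CPM in APOE4 microbead libraries, against 8.70, 18.2 and 13.7 CPM in APOE3 microbead libraries, and the log2 fold change of 1.23 ± 0.44 was not called (adjusted p = 0.270). Eif1a, a start codon factor, had 11.6, 12.8 and 13.3 CPM in APOE4 microbead libraries, against 21.8, 24.6 and 34.2 CPM in APOE3 microbead libraries (log2 fold change -1.08 ± 0.47, adjusted p = 0.419). Eif6, which keeps the large ribosomal subunit from joining, had 17.4, 22.4 and 26.6 CPM in APOE4 microbead libraries, against 34.8, 39.6 and 35.9 CPM in APOE3 microbead libraries (-0.73 ± 0.40, adjusted p = 0.585). The groups of these 3 genes did not overlap, but each was named for the smallest unadjusted p in its role group. Those of Eif3k given above did not overlap either (-0.76 ± 0.32, adjusted p = 0.401). The share of all genes without overlap was not counted, so this is a description. Eif5a had 91.1, 91.0 and 103 CPM in APOE4 microbead libraries, within the range of 80.3 to 156 CPM in APOE3 microbead libraries.

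The balance of elongation to initiation factors was set out within each library as a ratio of summed TPM, which no scaling between libraries can move. The eEF1 subunits and eEF2 over all Eif members gave 0.962, 1.18 and 1.03 in APOE3 microbead libraries, against 0.865, 0.743, 0.646 and 0.751 in APOE3 sham libraries. The ratio was 1.18, 0.975 and 1.01 in APOE4 microbead libraries, against 0.764, 0.821, 0.678 and 0.781 in APOE4 sham libraries. In both genotypes every microbead library was above every sham library. Without Eef1a1 the ratio was 0.337 to 0.431 in APOE3 microbead and 0.216 to 0.298 in APOE3 sham libraries. It was 0.329 to 0.404 in APOE4 microbead and 0.240 to 0.289 in APOE4 sham libraries, so the separation did not rest on Eef1a1 alone. The numerator holds Eef1a1, Eef1b2 and Eef2, which were called in APOE3, and without Eef1a1 it still holds the other 2. The ratio is therefore not independent of those calls, and as a score over chosen members it has no test.

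On the CPM scale the Eef members summed to 2388 ± 362 CPM in APOE4 microbead (SD, n = 3) and 1933 ± 49.9 CPM in APOE4 sham libraries (SD, n = 4). They summed to 2999 ± 434 CPM in APOE3 microbead (SD, n = 3) and 1826 ± 244 CPM in APOE3 sham libraries (SD, n = 4). The Eif members summed to 1907 ± 65.8 CPM in APOE4 microbead (SD, n = 3) and 2018 ± 134 CPM in APOE4 sham libraries (SD, n = 4). In APOE3 they summed to 2200 ± 257 CPM in microbead (SD, n = 3) and 1961 ± 171 CPM in sham libraries (SD, n = 4), where the ranges overlapped.

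Within elongation, the proportion of Eef1a1 to the eEF1B subunits depended on the subunit. Eef1a1 over Eef1b2, as a ratio of TPM, was 3.42, 3.73 and 4.23 in APOE3 microbead libraries, against 4.44, 6.15, 5.12 and 4.93 in APOE3 sham libraries. It was 4.15, 3.86 and 3.45 in APOE4 microbead libraries, against 4.75, 5.09, 4.33 and 5.13 in APOE4 sham libraries. Neither pair of groups overlapped. Eef1a1 over Eef1d, the other subunit with an exchange domain, had its highest values in microbead libraries and overlapped, at 15.3 to 27.5 in APOE4 microbead and 7.34 to 19.1 in APOE4 sham libraries, and at 12.6 to 27.1 in APOE3 microbead and 8.46 to 13.1 in APOE3 sham libraries. Eef1a1 over Eef1g overlapped too, with 14.95 ± 5.30 in APOE4 microbead (SD, n = 3) and 16.5 ± 5.45 in APOE4 sham libraries (SD, n = 4), and at 14.2 to 16.9 in APOE3 microbead and 10.2 to 18.6 in APOE3 sham libraries. Eef1a1 over Eef2 did overlap as well, at 5.59 to 7.04 in APOE3 microbead and 5.54 to 7.17 in APOE3 sham libraries.

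**Figure D4:**
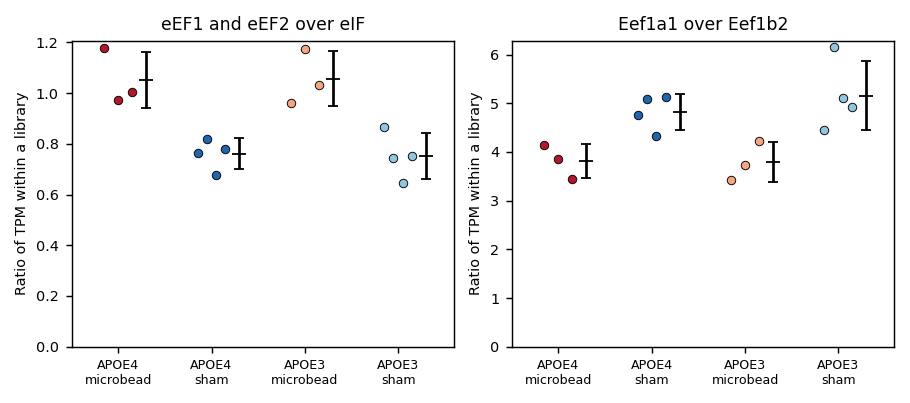
Ratios of TPM within each library (points) with the mean and SD of each group (bars; n = 3 microbead, n = 4 sham). The ratio of summed eEF1 and eEF2 to summed Eif members (left) is 0.962 or more in every microbead library and 0.865 or less in every sham library, and Eef1a1 over Eef1b2 (right) is 4.23 or less in every microbead library and 4.33 or more in every sham library.

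Genes that act beside the factors were followed in 6 lists of 48 tested genes. In the APOE3 comparison 4 were called (8.33%, against 5.19% of all genes), and in the APOE4 comparison 0 were called, against 0.223% of all genes. These shares are near those of all genes and are not read as a result about the lists. Of 11 tested genes for poly(A) binding and accessory initiation proteins 1 rose, Pabpc1, the main poly(A)-binding protein. It had 174 ± 43.3 CPM in APOE3 microbead (SD, n = 3) and 106 ± 15.3 CPM in APOE3 sham libraries (SD, n = 4). Its log2 fold change was 0.72 ± 0.21 (adjusted p = 0.0468). Of the 7 genes tested in the list of factor modification and selenocysteine elongation, only Tpt1 was called, and it rose. Tpt1 was put in this list but encodes neither a modifying enzyme nor a selenocysteine factor. It had 482 ± 108 CPM in APOE3 microbead (SD, n = 3) and 239 ± 45.3 CPM in APOE3 sham libraries (SD, n = 4; 1.01 ± 0.20, adjusted p = 0.00205). Of 5 genes of the integrated stress response, which follows eIF2 alpha phosphorylation, 1 rose, Nupr1, with 57.0 ± 11.3 CPM in APOE3 microbead (SD, n = 3) and 28.0 ± 11.6 CPM in APOE3 sham libraries (SD, n = 4; 1.04 ± 0.31, adjusted p = 0.0482).

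Of 5 mitochondrial translation factors 1 fell, Gfm2, which recycles mitochondrial ribosomes, with 102 ± 16.5 CPM in APOE3 microbead (SD, n = 3) and 170.5 ± 23.1 CPM in APOE3 sham libraries (SD, n = 4; log2 fold change -0.74 ± 0.21, adjusted p = 0.0323). Of 12 genes of mTORC1 and the cap kinases 0 were called, with 2 at an unadjusted p under 0.05 in APOE3. Rptor, the substrate-binding subunit of mTORC1, had 115 to 126 CPM in APOE4 microbead and 41.3 to 97.4 CPM in APOE3 microbead libraries, which did not overlap (0.92 ± 0.29, adjusted p = 0.184). Of 8 genes of termination, recycling and ribosome rescue 0 were called and 0 reached an unadjusted p under 0.05 in APOE3. Ltn1, a ubiquitin ligase of stalled ribosomes, had 6.39 to 16.6 CPM in APOE4 microbead and 17.1 to 30.8 CPM in APOE4 sham libraries (-0.90 ± 0.54, adjusted p = 0.867).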

How the data were processed

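Members and gene lists were chosen with earlier results of these data known. Per the submitters' processing notes the authors quantified reads with Salmon 1.4.0 against mm10 and used R 4.0.3 and DESeq2 1.30.1. The deposited values are estimated counts and TPM per transcript, and a table of TPM per gene by the authors. Estimated counts were summed per gene with GENCODE M21 (116023 of 116945 transcripts, the other 922 without a gene), giving 35519 genes, and rounded. All 68 members were matched, 3 of them by a RefSeq synonym whose TPM agreed in each library. As a check of the labels, each library's own TPM came within 1% of its column in that table for 99.2% to 99.4% of genes.

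Genes were filtered with filterByExpr (minimum count 10, minimum total 15), leaving 7609, and tested in 1 edgeR 4.0.16 quasi-likelihood model (R 4.3.3, robust, TMM) with 4 group means over 14 libraries, two-sided, with Benjamini-Hochberg adjustment over all genes. An adjusted p in the text is from this test unless another tool is named. The common biological coefficient of variation was 0.275. The SE is derived from the quasi-likelihood F statistic. The fit was tested on simulated data. Those counts followed the spread that the fit itself estimated, so they do not show how it handles the library differences given above. DESeq2 1.42.0 and limma 3.58.1 on log2(TPM + 1), for genes averaging at least 5 TPM, were among 26 alternatives, and only the fit without both APOE3 microbead libraries 1 and 2 was added after seeing the data. Per-library values are given for members called in any of 5 comparisons and, in each role group, for the member with the highest mean TPM and the one with the smallest unadjusted p. Eef1g, Eef1d and the paralogs were named outside this rule after their values were seen. From each list beside the members, genes called and the one with the smallest p are named. Estimates split reads between near-identical copies, so values of members with processed pseudogenes are uncertain. The 13 pseudogene rows averaged at most 0.52 TPM. A further microglial marker is not reported here. Promoter sequences are from RefSeq (GRCm38.p6). Analysis used Python 3.11.15, pandas 2.3.3 and matplotlib 3.10.9.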

Additional observations from a re-analysis of the deposited data

Results flagged for a closer look

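Among 64 groups of 4 sham libraries examined for the named members and the role sums, 5 had a library far from the other 3 by Dixon's criterion, which chance alone meets in about 1 in 20 groups. Eif2b2 had 1.69 CPM in APOE3 sham 2, while the other APOE3 sham libraries had 13.2 to 14.99 CPM. Eif2ak1 had 36.3 CPM in APOE4 sham 1, while the other APOE4 sham libraries had 12.7 to 15.4 CPM. Eif4g2 had 135 CPM in APOE3 sham 4, while the other APOE3 sham libraries had 104 to 107.5 CPM. Eif5a had 131 CPM in APOE4 sham 1, while the other APOE4 sham libraries had 76.2 to 80.3 CPM. The summed eIF5A and eIF6 genes had 99.6 CPM in APOE3 sham 2, while the other APOE3 sham libraries had 143 to 150.5 CPM.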

How the results depend on the processing

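In the APOE3 comparison 4 members were called, and the same 4 with DESeq2 size factors or with TMM without genes over 1% of reads. The count was 0 with library totals, 0 without both APOE3 microbead libraries 1 and 2, 0 in each of the 3 limma fits on TPM, 1 with length offsets, 1 with only the libraries compared, and 2 to 5 with single libraries left out. No member was called lower there, or in either direction in the other 4 comparisons, under any of the 26 alternatives. Replicate numbers were not shown to pair the samples. Same-numbered samples of different groups correlated at -0.127 to 0.091 and the others at -0.18 to 0.24, each as deviations from the group mean. With so few libraries this cannot settle whether samples are paired. With the replicate block 2 members were called. Over the 26 alternatives Eef1b2 was called in 21, Eef1a1 in 19, Eef2 in 7 and Eif3f in 7.

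Genes called numbered 395 in APOE3, 17 in APOE4, 7 in the interaction, 1 between shams and 44 between microbead groups. In that order they were 151, 3, 2, 0 and 14 with library totals, 222, 5, 0, 0 and 24 with length offsets, and 37, 26, 1, 0 and 2 without both APOE3 microbead libraries 1 and 2. For limma they were 28, 3, 1, 1 and 8 with log2(TPM + 1), 16, 2, 1, 0 and 3 with log2(TPM + 0.1), and 12, 0, 0, 3 and 1 with no filter. With only the libraries compared they were 230 in APOE3, 47 in APOE4, 0 between shams and 29 between microbead groups. With no filter on counts they were 53 in APOE4, 29 in the interaction, 12 between shams and 112 between microbead groups. DESeq2 gave 35 in APOE4, 46 in the interaction and 69 between microbead groups. The replicate block gave 5 in APOE4, 3 in the interaction and 0 between shams. With single libraries left out they ranged from 225 to 476, 2 to 17, 0 to 30, 0 to 1 and 11 to 121.

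In APOE4 the median log2 fold change of all genes was -0.22 with library totals and -0.32 with limma on log2(TPM + 1). In APOE4 the log2 fold changes turned to -0.0432, -0.0433 and -0.0432 for Eef1a1, -0.16, -0.17 and -0.16 for Eef2, -0.23, -0.25 and -0.23 for Eif3f and -0.0368, -0.0383 and -0.0368 for Eif4a2 in the 3 limma fits, and to -0.10 for Eif3f with library totals. For Eif3f in APOE4 it was -0.0703 to 0.23 with single libraries left out, and for Eef2kmt between shams -0.0216 to 0.29. Eif5a between microbead groups was 0.24 without both APOE3 microbead libraries 1 and 2. The cause of these changes was not tested. Reads per library limit members such as Eif2b2, with 1 to 22.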
